A study of Mus musculus with 47 samples.

Results

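Collagens and laminins were followed in the hippocampus of young and old mice treated with vehicle or with platelet factor 4 (PF4), a chemokine stored in platelet granules. The genes were chosen by name. Every gene of the count table whose symbol has the form of a collagen chain (Col, a type number, a, a chain number) or of a laminin chain (Lama, Lamb or Lamc and a number) and whose reads summed to at least 47 over the 47 libraries was taken, which gave 55 of 35486 genes, 44 collagens and 11 laminins. No gene with such a symbol fell under the minimum. All mice were male and on the C57BL/6J background, and each library was made from hippocampus tissue of 1 of 4 groups. Young Veh held 13 libraries of mice aged 3.75 to 5.26 months, Young PF4 held 12 aged 4.08 to 5.03 months, Old Veh held 12 aged 17.47 to 19.97 months and Old PF4 held 10 aged 17.4 to 20.23 months. Veh mice received the vehicle without PF4, and PF4 mice received mouse PF4 into the abdominal cavity. The libraries were unstranded Smart-Seq2 libraries of mRNA from whole tissue, so a lower level in a group can mean fewer cells of the type that makes the RNA or less RNA per cell, which cannot be told apart here.

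Collagens are chains that wind in threes into a triple helix, and they build fibrils, networks, beaded filaments and membrane anchors outside the cell. Laminins are cross-shaped trimers of 1 alpha, 1 beta and 1 gamma chain, and together with type IV collagen they form basement membranes, the thin sheets under epithelia and around vessels. In the brain, fibrillar collagens are made mainly by fibroblasts of the meninges and larger vessels, basement membrane chains by endothelium, pericytes and astrocytes, and a few transmembrane and fibril-associated collagens by neurons.

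Total counts ran from 2242879 to 21112908 per library, and 8 libraries, 4 of them Old Veh, lay under 5000000. The sample labels number the libraries from 1 to 12 in Old Veh, 13 to 23 in Old PF4 and 24 to 48 in the young groups, so age, and PF4 treatment in old mice, cannot be told apart from anything that went with that number. In the young groups the numbers of Veh and PF4 libraries are mixed. All 8 markers of hippocampal excitatory neurons were read in every library, with a summed level of at least 2937 CPM (counts scaled to a common library size with TMM factors). Markers of choroid plexus epithelium, a secretory tissue that borders the hippocampus, split the libraries at the widest gap of their mean log2 level (3.35 to 4.165) into 24 rich and 23 poor libraries. The rich libraries were 8 of 13 Young Veh, 8 of 12 Young PF4, 4 of 12 Old Veh and 4 of 10 Old PF4.

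The 55 genes held 234480 reads, or 0.0488% of all reads. In 42 of them every library had reads, and the other 13 had no read in at least 1 library. Levels of different genes are compared here only per length, as reads per kilobase of the longest annotated transcript, scaled by library size (RPKM). On that scale the genes ran from 0.0264 for Col6a6, an alternative chain of type VI collagen, to 13.2 for Col9a3, with a median of 0.603, and the 10 highest held 64.9% of the sum.

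**Figure D1:**
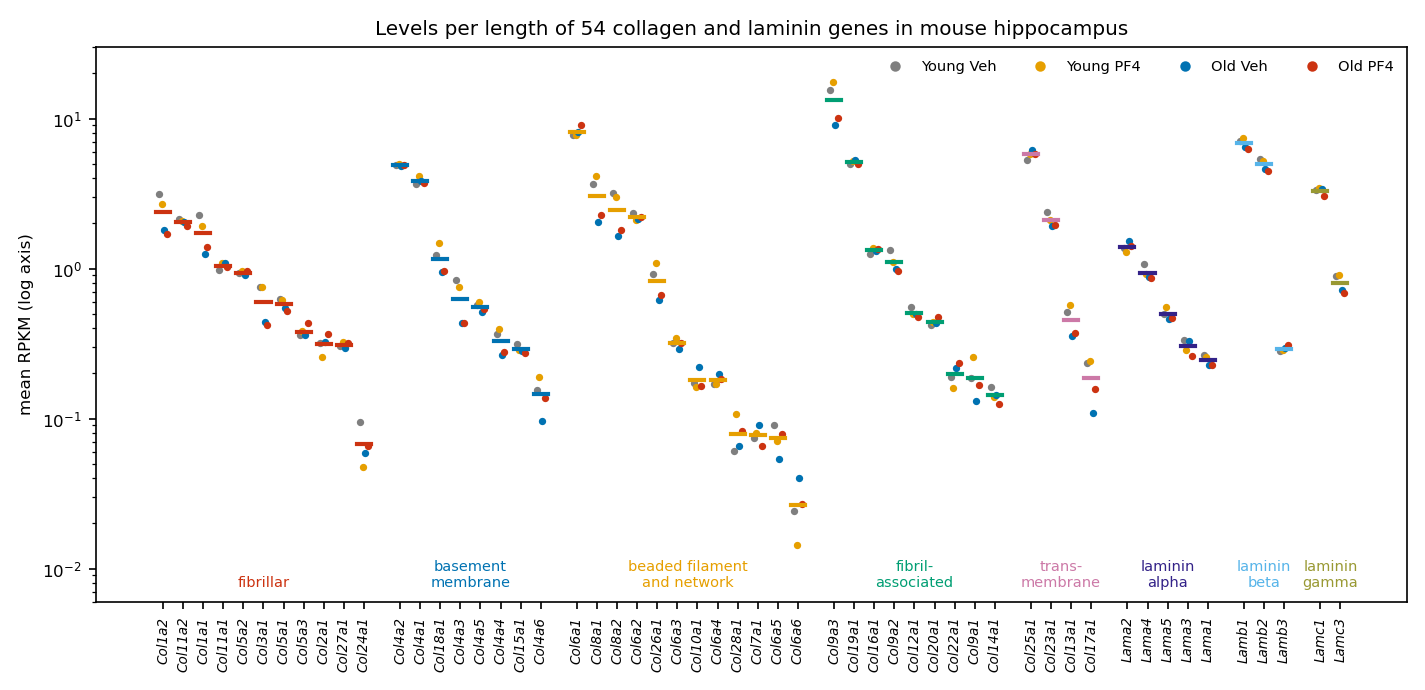
Mean level per length (RPKM, log axis) of 54 of the 55 genes, by family. Points are the means of the 4 groups and the bar is the mean over all 47 libraries. Col9a3 had the highest mean at 13.2 RPKM and Col6a6 the lowest at 0.0264 RPKM, and the group means of most genes lay close together.

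The highest levels came from chains of different roles. Col9a3, a chain of type IX collagen, which coats cartilage fibrils, averaged 13.2 RPKM ± 9.67 (SD, n = 47). Col6a1, a chain of the beaded filaments of type VI collagen, averaged 8.13 RPKM ± 1.87. Lamb1, the beta 1 chain of the widespread laminins, averaged 6.83 RPKM ± 0.942. The SD of Col9a3 was thus a large part of its mean, while those of Col6a1 and Lamb1 were small beside theirs. Col25a1, a transmembrane collagen of neurons whose shed ectodomain is found in amyloid plaques, averaged 5.77 RPKM ± 0.724. Col19a1, a fibril-associated collagen made by some interneurons, averaged 5.12 RPKM ± 0.656. Lamb2, the beta 2 chain found in vessel walls and at synapses, averaged 4.98 RPKM ± 1.05. Next came Col4a2 at 4.91 RPKM ± 0.878 and Col4a1 at 3.83 RPKM ± 0.653, the chains of the general basement membrane trimer. Lamc1, the gamma 1 chain shared by most laminins, averaged 3.31 RPKM ± 0.534, and Col8a1, a chain of the short network collagen type VIII, averaged 3.06 RPKM ± 2.82. Col9a3 and Col8a1 had medians of 62.1 and 29.8 CPM in choroid-rich libraries but 13.1 and 1.69 CPM in choroid-poor ones. The levels, order and sums here are thus over all 47 libraries and were not computed within the choroid clusters. Of the neighbours in this order, Lamb1 and Col25a1 lay farther apart than the larger of their SDs, and so did Col4a2 and Col4a1, while the others did not. By family the summed levels were 22.2 RPKM for the 9 fibril-associated collagens, 17.6 for the 12 beaded filament and network collagens, 12.1 for the 3 laminin beta chains, 11.9 for the 8 basement membrane collagens and 10.4 for the 11 fibrillar collagens. The 4 transmembrane collagens summed to 8.51 RPKM and the 5 laminin alpha chains to 3.39.

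Of the 55 genes, 51 passed the count filter and were tested among 17778 genes. Col6a6, Col28a1, Col24a1 and Col10a1 did not pass. The SD of log2 levels within groups had a median of 0.544 over the 51 genes and of 0.214 over all genes tested, and 47 of the 51 lay above the median of all genes. This SD includes counting error, which is larger for genes with few reads, and the 51 genes had a median log2 CPM of 2.21 against 4.17 for all genes, so the spread between mice was not separated from low counts. The steadiest were Col25a1 (SD 0.167) and Lamb1 (SD 0.171), and the most variable were Col8a1 (SD 1.89) and Col8a2 (SD 1.41).

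Age was examined first in mice that received the vehicle. Of the 51 genes, 1 was called in Old Veh against Young Veh, Col1a1, which was lower in the old mice. Called means a Benjamini-Hochberg adjusted p under 0.05 over all 17778 genes in the quasi-likelihood test of edgeR. Over all genes 2.77% were called, and 0.607% were called as lower. DESeq2 called Col1a1 and Col25a1, and 3.58% of all genes. The fold changes of 37 of the 51 genes lay below 0 on the log2 scale, against 54.7% of all genes, and their median was -0.18 against -0.01 for all genes. At an unadjusted p under 0.05 there were 2 higher genes (Col25a1 and Lama2) and 7 lower ones, among them Col1a1, Col1a2, Col26a1, Col4a6, Col3a1 and Col9a2, against 8.43% higher and 6.76% lower among all genes.

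The fibrillar collagens of connective tissue had the largest differences with small p. Col1a1 (ENSMUSG00000001506.10, chromosome 11, 94936224 to 94953042, GRCm38) encodes the alpha 1 chain of type I collagen, the main protein of fibrous tissue. Its level ran from 7.20 through a median of 11.2 to 26.3 CPM in Young Veh and from 3.49 through 5.62 to 15.9 CPM in Old Veh. The groups overlapped, but 8 of the 12 Old Veh libraries lay below every Young Veh library. The log2 fold change was -0.88 (standard error, SE, 0.24, 95% interval -1.35 to -0.40), with an adjusted p of 0.0301 by edgeR and 0.0231 by DESeq2. Fitted to Young Veh and Old Veh only, the fold change was -0.87 with an edgeR adjusted p of 0.0503, not called. The call was kept in 18 of 25 fits that each left out 1 library of either group. It was lost without Old Veh replicate 1, 5, 6, 7 or 12 or Young Veh replicate 3 or 8, where the adjusted p lay between 0.0557 and 0.0710 and the fold change between -0.84 and -0.75.

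Col1a2 (chromosome 6, 4504814 to 4541544) encodes the alpha 2 chain, which joins with the product of Col1a1 in type I collagen. Its level ran from 6.38 through 14.8 to 35.9 CPM in Young Veh and from 2.98 through 6.64 to 20.9 CPM in Old Veh. Here 5 of the 12 Old Veh libraries lay below every Young Veh library, and the log2 fold change of -0.88 (SE 0.30) was not called, with an edgeR adjusted p of 0.101. Without Old Veh replicate 10 alone it was -1.12, with an adjusted p of 0.0273. Col3a1 (chromosome 1, 45311538 to 45349706), the chain of type III collagen of soft tissues and vessel walls, ran from 1.24 through 3.35 to 8.78 CPM in Young Veh and from 0.474 through 1.56 to 7.27 CPM in Old Veh. Its log2 fold change of -0.84 (SE 0.38) was not called either, with an edgeR adjusted p of 0.257, and 10 of 12 Old Veh libraries lay below the Young Veh median. The other 7 fibrillar chains tested lay nearer 0.

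The bases upstream of Col1a2 and Col3a1 are shown because both genes varied together with Col1a1 between mice. They come from RefSeq promoter windows of GRCm38.p6, which were matched for 40 of the 55 genes, and each is given up to the next exon start in the GENCODE annotation, on the strand of the gene. For Col1a2 this is chr6:4505368-4505492 (plus strand). It lies within the annotated span of the gene, whose longer-reaching transcript starts farther upstream, and its first 2 bases belong to an exon of that transcript. For Col3a1 it is chr1:45311288-45311537 (plus strand). Capitals mark the GC box letters GGGCGG and the TATA box letters TATAAA, searched on both strands together with CCAAT.
Col1a2 upstream: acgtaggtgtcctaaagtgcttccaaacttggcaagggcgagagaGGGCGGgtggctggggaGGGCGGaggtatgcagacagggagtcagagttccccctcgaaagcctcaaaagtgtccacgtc
Col3a1 upstream: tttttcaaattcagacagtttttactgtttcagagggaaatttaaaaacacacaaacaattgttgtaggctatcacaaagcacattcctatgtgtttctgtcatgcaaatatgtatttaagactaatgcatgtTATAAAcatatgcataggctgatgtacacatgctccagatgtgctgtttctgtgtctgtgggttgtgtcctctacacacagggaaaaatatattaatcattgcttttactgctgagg
The Col1a2 stretch held 59.2% G or C and the Col3a1 stretch 35.2%. Over whole windows of 300 bases, GGGCGG was found in 25 of the 40 matched collagen and laminin promoters and in 35.9% of all 27025 promoters. TATAAA was found in 5 of the 40 and in 14.2% of all, and CCAAT in 13 of the 40 and in 37.9% of all.

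Col25a1 (chromosome 3, 130131501 to 130599877) was the gene with the second smallest p and the opposite direction. Its level ran from 28.9 through 35.3 to 45.1 CPM in Young Veh and from 38.4 through 40.7 to 47.4 CPM in Old Veh. All 12 Old Veh libraries lay above the Young Veh median, and 2 of them above every Young Veh library. The log2 fold change was 0.22 (SE 0.07), with an adjusted p of 0.0547 by edgeR, not called, and of 0.0311 by DESeq2, called. Leaving out 1 library gave a call in 6 of 25 fits, those without Young Veh replicate 2, 8, 9 or 13 or Old Veh replicate 10 or 11 (adjusted p 0.0297 to 0.0487).

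Col26a1, a secreted collagen first found in testis and ovary, had the smallest p after these. It ran from 1.40 through 2.39 to 4.37 CPM in Young Veh and from 1.28 through 1.68 to 2.62 CPM in Old Veh, and 11 of 12 Old Veh libraries lay below the Young Veh median. The log2 fold change was -0.52 (SE 0.18, edgeR adjusted p 0.126), not called. With the length index of each library as a covariate, the mean level of long transcripts minus that of short ones, it was -0.58 (edgeR adjusted p 0.0441), and Col1a2 was -1.01 (edgeR adjusted p 0.029), so both were then called.

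**Figure D2:**
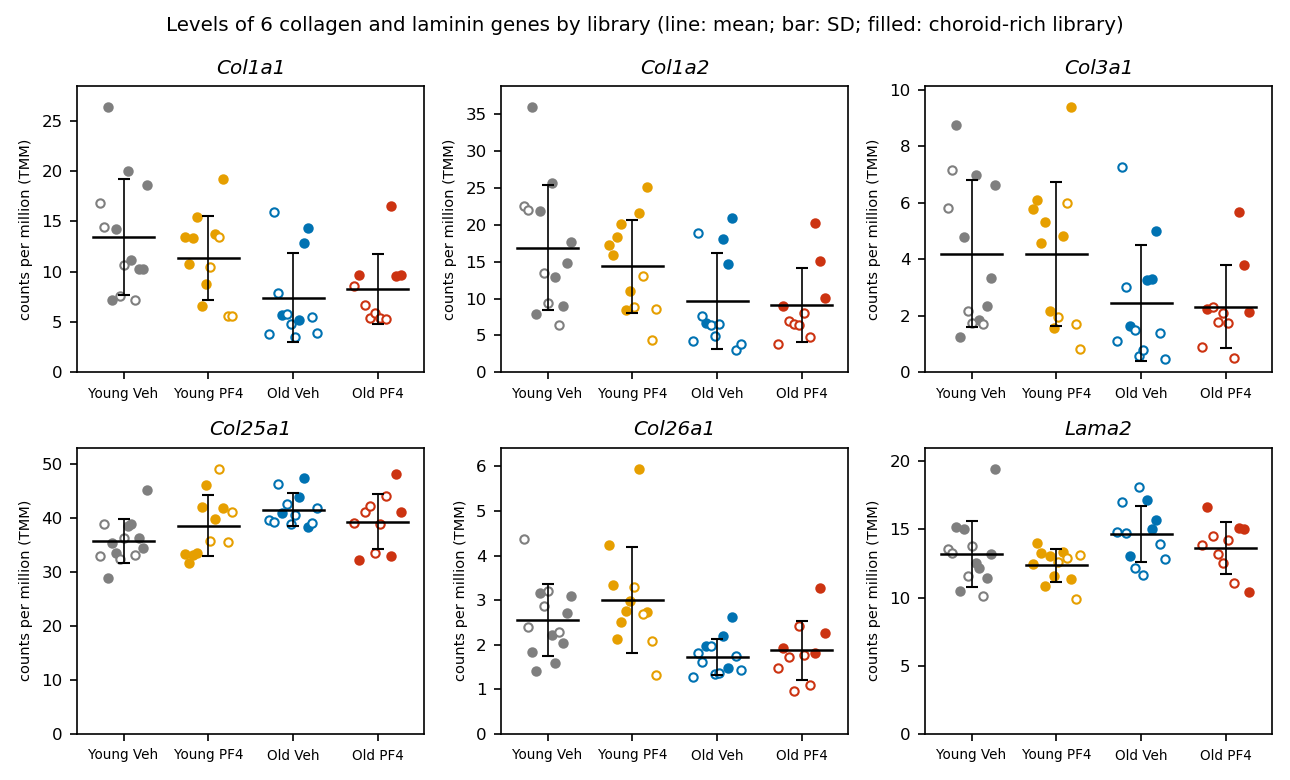
Level in each library (TMM-scaled CPM, linear axis from 0) of 6 collagen and laminin genes in the 4 groups. Lines are means, bars are SDs, and filled points are libraries rich in choroid plexus markers. Col1a1 averaged 13.4 CPM in Young Veh and 7.43 CPM in Old Veh, with overlapping ranges, and Col25a1 averaged 35.7 and 41.5 CPM.

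Among the widespread laminins, Lama2, the alpha 2 chain of muscle, nerve and brain vessel basement membranes, ran from 10.1 through 13.2 to 19.5 CPM in Young Veh and from 11.6 through 14.8 to 18.1 CPM in Old Veh. Its ranges overlapped, and the log2 fold change was 0.17 (95% interval 0.01 to 0.33, edgeR adjusted p 0.292), not called. Lamb2 ran from 21.8 through 29.7 to 42.05 CPM in Young Veh and from 22.3 through 24.5 to 37.02 CPM in Old Veh, with a log2 fold change of -0.20 (95% interval -0.42 to 0.01, edgeR adjusted p 0.371), which was -0.0027 with the fibroblast score and -0.069 with the choroid plexus score as a covariate. Lamb1 and Lamc1, the highest beta and gamma chains per length, had log2 fold changes of -0.12 (95% interval -0.26 to 0.02) and -0.01 (95% interval -0.18 to 0.16), and neither was called.

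Families other than the fibrillar collagens held no gene called by edgeR in this comparison. In these, 7 of 8 basement membrane collagens and 3 of 4 transmembrane collagens lay below 0, with median log2 fold changes of -0.34 and -0.38. The 9 fibril-associated collagens had a median of 0.04 and the 5 laminin alpha chains one of -0.06. Markers of other cell types were read beside these. All 12 fibroblast markers had fold changes below 0 (median -0.60, 0 called, 2 at an unadjusted p under 0.05), and their summed level ran from 89.0 through 210.8 to 400.5 CPM in Young Veh and from 61.7 through 128.5 to 346.9 CPM in Old Veh, with Crabp2 at 0 in some libraries. All 10 choroid plexus markers were below 0 as well (median -0.92, 0 called), with summed levels from 12.0 through 1943 to 4259 CPM in Young Veh and from 15.1 through 47.1 to 4259 CPM in Old Veh, and 4 of them (Kcne2, Otx2, Aqp1 and Slc4a5) at 0 in some libraries. Of 10 endothelial markers 7 lay below 0 (median -0.02, 0 called), and of 10 pericyte and smooth muscle markers 7 did (median -0.14, 1 called as higher, 2 lower at an unadjusted p under 0.05), whose summed level ran from 143.9 through 155.2 to 218.7 CPM in Young Veh and from 134.4 through 162.3 to 232.5 CPM in Old Veh. With the fibroblast score as a covariate the log2 fold change of Col1a1 was -0.44 (edgeR adjusted p 0.0329), still called, and with the choroid plexus score it was -0.60 (edgeR adjusted p 0.138), not called. Within the choroid-poor libraries, 8 Old Veh against 5 Young Veh, the log2 fold change was -0.93 (edgeR adjusted p 0.138), and within the choroid-rich ones, 4 against 8, it was -0.55 (edgeR adjusted p 0.734). The same choroid-poor and choroid-rich values were -1.24 and -0.24 for Col1a2, -1.16 and -0.26 for Col3a1 and -0.93 and 0.04 for Col26a1, none of them called.

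Age in PF4 mice is a comparison that shares no mouse with the first. Both comparisons share the split of library numbers between old and young, and both have fewer choroid-rich libraries in the old group. The 51 genes also correlate with each other, so counts of genes below 0 in both comparisons are not independent results. None of the 51 genes was called in Old PF4 against Young PF4 by edgeR or DESeq2, where 0.332% of all genes were called by edgeR and 0.523% by DESeq2, and 2 higher and 2 lower had an unadjusted p under 0.05, against 4.99% and 3.28% of all genes. Again 37 of the 51 fold changes lay below 0, against 48.3% of all genes, and the median was -0.11 against 0.00 for all genes. The smallest p belonged to Col26a1, which ran from 1.31 through 2.75 to 5.95 CPM in Young PF4 and from 0.964 through 1.78 to 3.27 CPM in Old PF4. Of the 10 Old PF4 libraries 9 lay below the Young PF4 median, and the log2 fold change was -0.60 (SE 0.19, edgeR adjusted p 0.223). Lamb1 ran from 34.8 through 42.4 to 52.1 CPM in Young PF4 and from 30.6 through 37.2 to 41.2 CPM in Old PF4, with all 10 Old PF4 libraries below the Young PF4 median and a log2 fold change of -0.22 (SE 0.07, edgeR adjusted p 0.262). Within choroid-poor libraries it was -0.01 and within choroid-rich ones -0.28, and with the choroid plexus score as a covariate it was -0.12.

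Col22a1, a fibril-associated collagen of tissue junctions, and Col6a1 had positive log2 fold changes of 0.48 and 0.26 in this comparison, and Col3a1 one of -0.78 (edgeR adjusted p 0.526, 0.582 and 0.613). Col1a1 ran from 5.57 through 12.1 to 19.2 CPM in Young PF4 and from 5.26 through 7.61 to 16.5 CPM in Old PF4. Its log2 fold change was -0.45 (95% interval -0.96 to 0.06), with 3 of 10 Old PF4 libraries below every Young PF4 library. Col1a2 had -0.60 (95% interval -1.23 to 0.04) and Col25a1 0.04 (95% interval -0.11 to 0.18). Markers of other cell types were read in this comparison too. All 10 choroid plexus markers lay below 0 (median log2 fold change -1.05, 0 called), with summed levels from 94.03 through 2380 to 3448 CPM in Young PF4 and from 25.9 through 65.9 to 3280 CPM in Old PF4. Of 12 fibroblast markers 10 lay below 0 (median -0.25, 0 called), and their summed level ran from 89.0 through 207.9 to 324.7 CPM in Young PF4 and from 92.1 through 125.2 to 369.2 CPM in Old PF4. Of 10 endothelial markers 8 lay below 0 (median -0.10, 0 called). Of 10 pericyte and smooth muscle markers 6 did (median -0.19, 0 called, 4 lower at an unadjusted edgeR p under 0.05). All 8 oligodendrocyte markers lay above 0 (median 0.24, 1 called, 7 at an unadjusted edgeR p under 0.05). With the fibroblast score as a covariate the log2 fold changes of Col1a1, Col1a2 and Col3a1 were -0.19, -0.24 and -0.31, and with the choroid plexus score -0.23, -0.26 and -0.48. Within choroid-rich libraries they were -0.12, -0.30 and -0.47, and within choroid-poor ones -0.58, -0.47 and -0.72.

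The age difference of Col1a1 in PF4 mice minus that in Veh mice was 0.43 on the log2 scale (95% interval -0.27 to 1.12, unadjusted p 0.225 by edgeR), so a difference between the treatments was not detectable. It was 0.26 without Old PF4 replicate 9 and 0.70 without the libraries under 5000000 counts. For Col25a1 it was -0.18 (95% interval -0.38 to 0.01, unadjusted p 0.0618 by edgeR), the smallest p among the 51 genes.

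**Figure D3:**
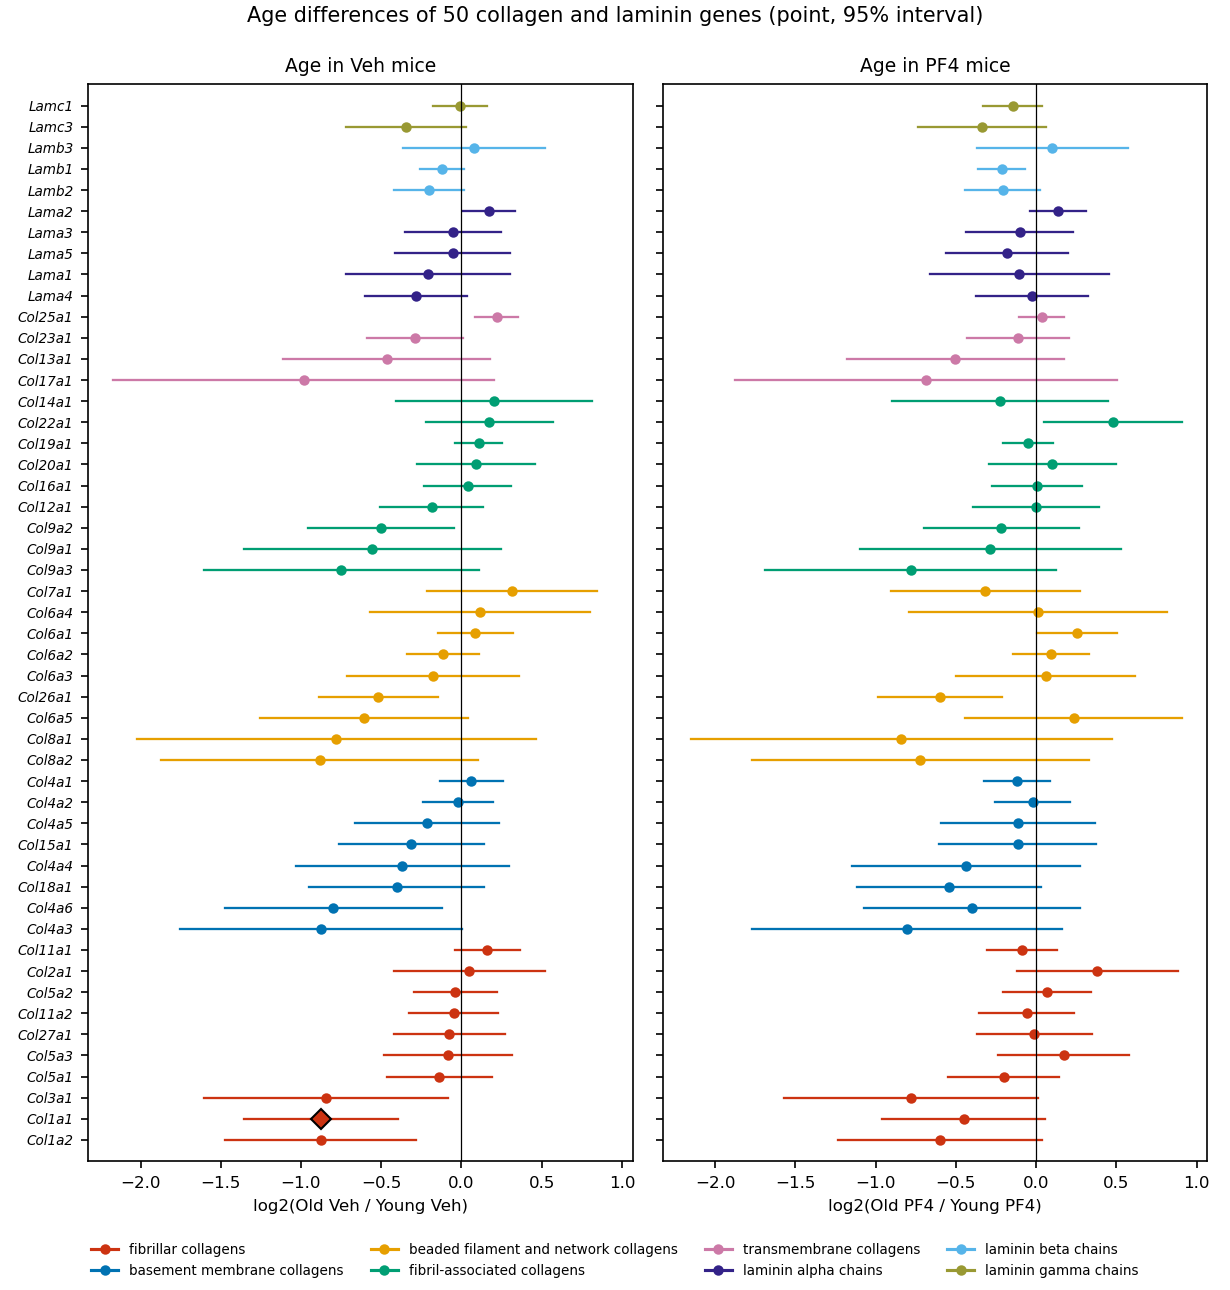
Log2 fold change of old against young mice with its 95% interval for 50 of the 51 tested genes, in Veh mice (left) and PF4 mice (right), coloured by family. The diamond marks the 1 called gene, Col1a1 in Veh mice at -0.88, and 36 of 50 points lie left of 0 in each panel.

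PF4 treatment was compared with vehicle within each age. None of the 51 genes was called in Old PF4 against Old Veh by edgeR or DESeq2, and none had an unadjusted p under 0.05, where over all genes 0.0337% were called by edgeR and 0.129% by DESeq2, and 6.2% had such a p. The fold changes of the 51 genes ran from -0.46 for Col7a1, the collagen of the anchoring fibrils of skin, to 0.55 for Col4a6, a basement membrane chain, and 20 of the 51 lay below 0, against 46% of all genes. The median was 0.06, against 0.01 for all genes. The smallest p belonged to Lama3, the alpha 3 chain of laminin 332, which ran from 2.19 through 3.38 to 5.24 CPM in Old Veh and from 1.85 through 2.81 to 3.63 CPM in Old PF4. The groups overlapped, and the log2 fold change was -0.29 (95% interval -0.62 to 0.04). Col5a3, a minor fibrillar chain, had 0.36 (95% interval -0.06 to 0.78) and Lamc1 -0.14 (95% interval -0.32 to 0.05). The 95% interval lay within 1 log2 unit of 0 for 41 of the 51 genes and within 0.5 for 22, and the widest belonged to Col8a1, so for the remaining genes a difference of that size was not excluded. The Old Veh and Old PF4 libraries also differ in library number throughout.

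In young mice 0 of the 51 genes were called by edgeR or DESeq2, and 0 had an unadjusted p under 0.05, where 0% of all genes were called by either tool and 1.2% had such a p. The fold changes ran from -0.35 to 0.21 with a median of 0.00. The smallest p belonged to Lama4, the alpha 4 chain of vessel laminins, with a log2 fold change of -0.27 (95% interval -0.59 to 0.04), and to Col25a1, with 0.11 (95% interval -0.02 to 0.24). Lama3, Col4a1 and Col11a1 followed with -0.24, 0.15 and 0.14, and without Young Veh replicate 1 the value for Lama3 was -0.13. The interval lay within 1 log2 unit of 0 for 47 of the 51 genes. The PF4 effect did not differ between ages for any of the 51 at an adjusted p under 0.05 by edgeR or DESeq2, where 0% of all genes were called, and 0 had an unadjusted p under 0.05, against 3.98% of all genes. After Col25a1, the smallest p of that difference belonged to Col6a5, another chain of type VI collagen, at 0.84 (95% interval -0.10 to 1.78), and to Col11a1, a minor fibrillar chain, at -0.25 (95% interval -0.55 to 0.05). These comparisons share control groups and are not independent of each other.

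**Figure D4:**
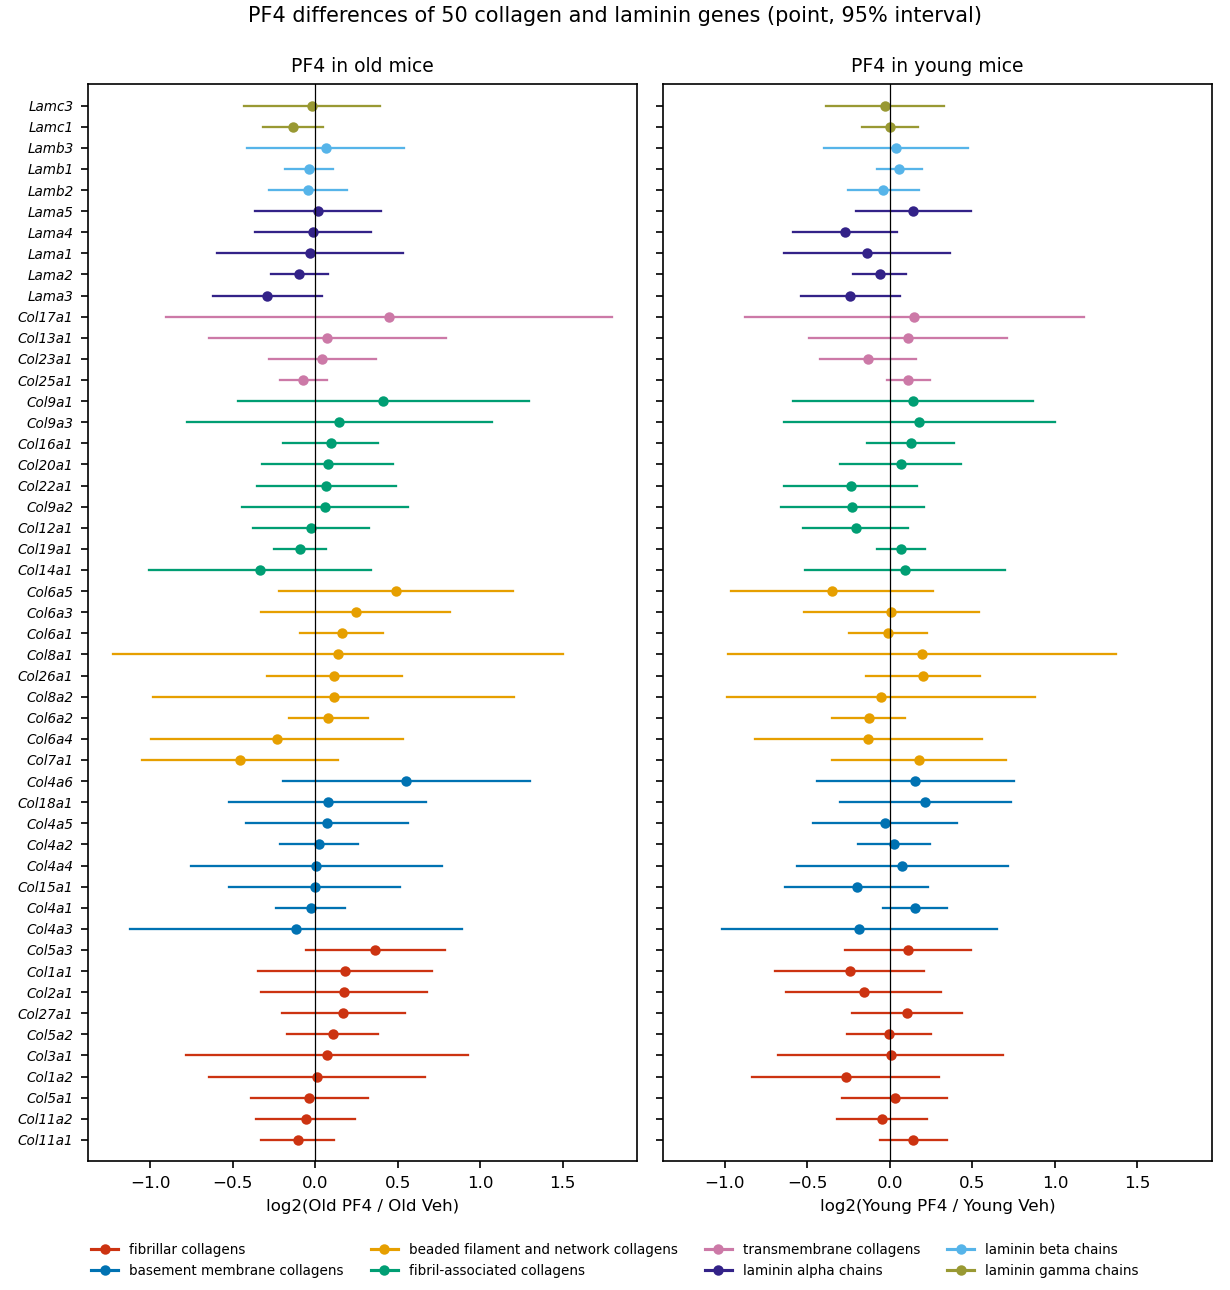
Log2 fold change of PF4 against vehicle with its 95% interval for 50 of the 51 tested genes, in old mice (left) and young mice (right), coloured by family. No gene was called, and the points run from -0.46 to 0.55 in old mice and from -0.35 to 0.21 in young mice.

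Genes that make, bind and remove collagens and laminins were read from 5 lists. In Old Veh against Young Veh, where 2.77% of all genes were called and 54.7% lay below 0, 1 of 13 other basement membrane proteins tested was called, Nid1, the linker between laminin and type IV collagen, with a log2 fold change of -0.64 (SE 0.18, edgeR adjusted p 0.0327). Of 15 receptors, 2 were called. Lair1, an inhibitory collagen receptor of immune cells, rose by 0.37 on the log2 scale (SE 0.10, edgeR adjusted p 0.0319), and Itgb1, the beta 1 chain of the collagen and laminin integrins, fell by 0.25 (SE 0.07, edgeR adjusted p 0.0458). None was called among 18 genes of chain modification and folding, 13 of propeptide removal and crosslinking and 10 of degradation and its inhibitors, of which 16, 8 and 8 lay below 0. The smallest p in these lists belonged to Serpinh1 (log2 fold change -0.51) and Ppib (-0.08), both helpers of collagen folding, to Adamts2 (-0.34) and Adamts3 (0.20), which cut procollagen ends, and to Timp2 (-0.18) and Mmp14 (-0.22), an inhibitor and a membrane-bound collagenase. In PF4 mice Npnt, a basement membrane ligand of an integrin, was the 1 gene of the 5 lists called by edgeR, against 0.332% of all genes, with a log2 fold change of -0.36 (SE 0.08, adjusted p 0.0358). No gene of the lists was called for PF4 in old or young mice.

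Which collagens and laminins varied together from mouse to mouse was measured over the 47 libraries after group means were removed, with log2 CPM. Permutation p for the marker scores were adjusted over all 17778 genes and 4 scores, and those for pairs over the pairs. The smallest p that 100000 resamples can give is 1e-05. Against a score of 12 fibroblast markers, 19 of the 51 genes had an adjusted p under 0.05, all with a positive sign, against 7.51% of all genes. Against the endothelial score 12 did, against 4.25% of all genes, and against the score of pericytes and smooth muscle 14 did, against 3.98%. The shares of all genes count both signs, and 43.9% of all genes had a positive r with the fibroblast score. The median r of the 51 genes was 0.33, 0.32 and 0.33 for these scores, and that of all genes was -0.03, 0.01 and -0.01. The scores were not independent of each other, since the fibroblast score correlated with the pericyte and smooth muscle score at r = 0.83 (rho = 0.81). It also correlated with the endothelial score at r = 0.72 (rho = 0.72) and with the choroid plexus score at r = 0.68 (rho = 0.67). The strongest were the fibrillar chains. Col1a2 correlated with the fibroblast score at r = 0.92 (rho = 0.92, r = 0.91 with the 2 libraries most distant from the median score left out, adjusted permutation p 0.000584). Col3a1 followed with r = 0.88 (rho = 0.88), Col1a1 with r = 0.88 (rho = 0.83) and Lamb2 with r = 0.77 (rho = 0.74), and with those 2 libraries left out these were 0.87, 0.85 and 0.72. With the choroid clusters removed too, 8 of the 51 genes passed for the fibroblast score, against 1.65% of all genes, and r was 0.88 for Col1a2, 0.88 for Col3a1, 0.86 for Col1a1 and 0.72 for Lamb2. Col11a1 had r = -0.42 (rho = -0.41), which did not pass (adjusted permutation p 0.0672). For Col25a1 no relation with that score was detectable (r = -0.02, rho = 0.03, adjusted permutation p 0.965).

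Several collagens went with choroid plexus markers, and they are not a separate set from the genes above. The genes that passed for the fibroblast score include Col8a1, Col8a2, Col9a3, Col17a1, Col4a3 and Col4a4, and Col1a1, Col1a2 and Col3a1 were 0.58, 0.90 and 0.85 log2 units higher in choroid-rich than in choroid-poor libraries on average. Since choroid plexus markers split the libraries into 2 clusters, relations with them are given between and within clusters. Col8a1 (chromosome 16, 57624258 to 57754737) ran from 0.776 through 1.69 to 6.19 CPM in the 23 choroid-poor libraries and from 14.6 through 29.8 to 45.03 CPM in the 24 choroid-rich ones. Col9a3 (chromosome 2, 180597790 to 180622189) ran from 5.01 through 13.1 to 27.5 CPM in poor and from 34.4 through 62.1 to 99.8 CPM in rich libraries. Neither gene had overlapping values between the clusters in any of the 4 groups, and the same held for Col8a2, for Col17a1, a transmembrane collagen of hemidesmosomes, and for Col4a4. Rich libraries lay above poor ones without overlap in each group for 0.574% of all genes. The mean difference between rich and poor libraries was 3.66 log2 units for Col8a1, 2.52 for Col8a2, 2.35 for Col17a1, 2.19 for Col9a3, 2.04 for Col4a3 and 1.42 for Col4a4, and the median over the 51 genes was 0.17. Within the rich libraries 3 of the 51 genes correlated with the choroid plexus score after adjustment over all genes and both clusters, against 0.647% of all genes. They were Col8a1 (r = 0.92, rho = 0.83, adjusted permutation p 0.00658), Col4a4 (r = 0.85, rho = 0.77, adjusted permutation p 0.0271) and Col9a3 (r = 0.81, rho = 0.68, adjusted permutation p 0.0343), and by rho Col8a1 and Col4a3 passed. Col4a3 had r = 0.79 (adjusted permutation p 0.0541). With the 2 libraries most distant from the median score left out, r was 0.91 for Col8a1, 0.80 for Col4a4 and 0.70 for Col9a3. Within the poor libraries 0 passed, against 0.0787% of all genes. There Col9a1 (r = 0.59, adjusted permutation p 0.109) and Col17a1 (r = 0.58, adjusted permutation p 0.30) had the smallest p.

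**Figure D5:**
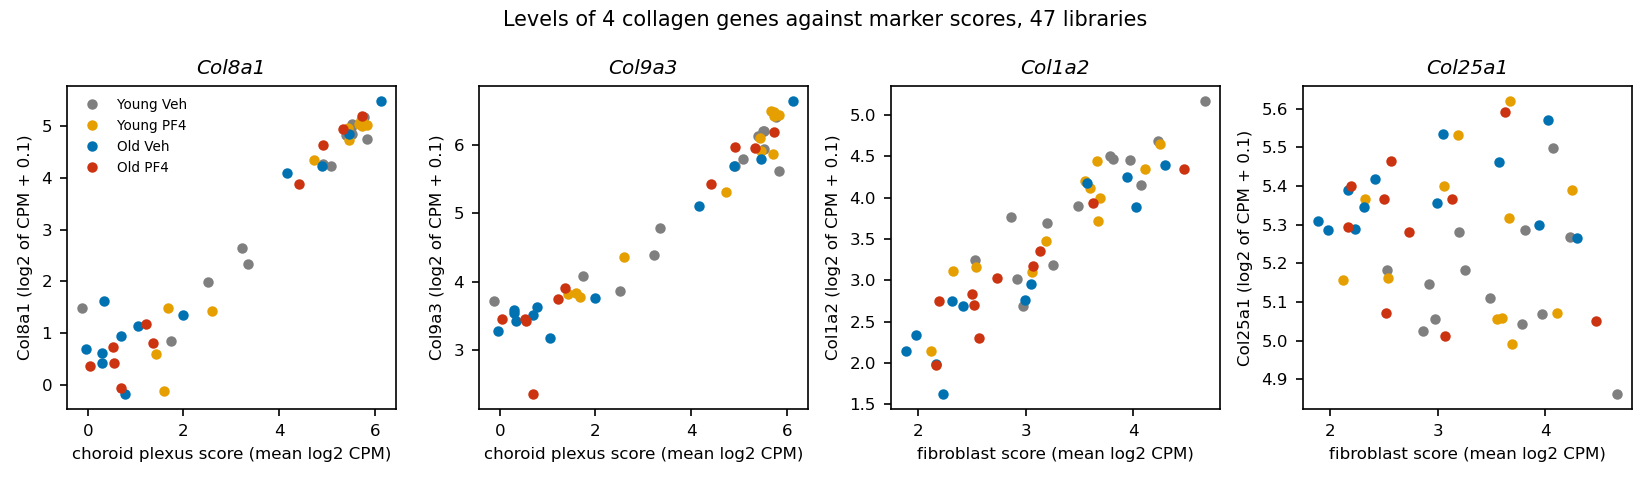
Level of 4 collagen genes (log2 of CPM + 0.1) against the choroid plexus score (Col8a1, Col9a3) or the fibroblast score (Col1a2, Col25a1), 1 point per library, coloured by group. Col8a1 and Col9a3 fall into 2 clusters along the choroid plexus score, Col1a2 rises along the fibroblast score (r = 0.92 after group means were removed), and Col25a1 does not (r = -0.02).

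Chains of the same collagen type or laminin molecule, together with Col1a1 and Col3a1, whose products lie in common fibrils, were compared as 18 pairs, of which 11 had an adjusted permutation p under 0.05. The 51 genes correlated broadly with each other. Of all 1275 pairs among them 29.6% had an unadjusted permutation p under 0.05, against 11 of the 18, and 18.0% had a p adjusted over all of these pairs under 0.05, against 9 of the 18. The median r was 0.15 over all pairs and 0.39 over the 18, and the difference was not tested. Col1a1 and Col1a2 correlated at r = 0.82 (rho = 0.81, r = 0.78 with the 2 most distant libraries left out, adjusted permutation p 3.6e-05), and Col1a1 and Col3a1 at r = 0.85 (rho = 0.84). Both also held within choroid-rich (r = 0.82 and 0.84) and choroid-poor libraries (r = 0.70 and 0.81). With the 2 most distant libraries of each cluster left out, r was 0.76 and 0.79 in rich and 0.48 and 0.67 in poor libraries. Col8a1 and Col8a2 correlated at r = 0.71 in rich and 0.64 in poor libraries (adjusted permutation p 0.00138 and 0.00918). Col4a3 and Col4a4, partners in the collagen of kidney and other special basement membranes, correlated at r = 0.67 in rich libraries (adjusted permutation p 0.0175) and at 0.23 in poor ones (adjusted permutation p 0.426). Lamb1 and Lamc1, which share many laminin trimers, had r = 0.23 (rho = 0.29, adjusted permutation p 0.164) and Col6a1 and Col6a3 r = -0.10 (rho = -0.06, adjusted permutation p 0.519), so no relation was detectable for either pair over the 47 libraries. The signs differed between clusters, where neither pair passed. For Lamb1 and Lamc1 r was 0.44 in rich and -0.26 in poor libraries (adjusted permutation p 0.139 and 0.426). For Col6a1 and Col6a3 it was 0.13 and -0.32 (adjusted permutation p 0.685 and 0.155).

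Of the 6 laminin pairs 3 passed. Lama5 and Lamb2, chains of a vessel and epithelial laminin, correlated at r = 0.57 (rho = 0.62, r = 0.58 with the 2 most distant libraries left out, adjusted permutation p 0.000514), and at r = 0.63 in choroid-rich and 0.21 in choroid-poor libraries (adjusted permutation p 0.013 and 0.437). Lama2 and Lamb2 correlated at r = 0.44 (rho = 0.37, 0.45 with those libraries left out, adjusted permutation p 0.00498), and at r = 0.28 in rich and 0.56 in poor libraries (adjusted permutation p 0.316 and 0.0187). Whether r differed between rich and poor libraries was not tested. Lamb2 and Lamc1 correlated at r = 0.33 (rho = 0.36, adjusted permutation p 0.0391), and at r = 0.35 in rich and 0.04 in poor libraries, where neither value passed with the smaller number of libraries (adjusted permutation p 0.201 and 0.858). Lama2 and Lamc1 (r = 0.10, rho = 0.16, adjusted permutation p 0.519) and Lama4 and Lamb1 (r = 0.24, rho = 0.25, adjusted permutation p 0.141) did not pass.

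The other collagen pairs ranged from passing in both clusters to not passing at all. Col4a5 and Col4a6, basement membrane chains, correlated at r = 0.54 (rho = 0.61, adjusted permutation p 0.00027), and at 0.39 in rich and 0.63 in poor libraries (adjusted permutation p 0.0373 and 0.0159). Col6a1 and Col6a2, partners in type VI collagen, correlated at r = 0.43 (rho = 0.45, adjusted permutation p 0.00198), and at 0.57 in rich and 0.32 in poor libraries (adjusted permutation p 0.016 and 0.149). Col9a2 and Col9a3, partners in type IX collagen, correlated at r = 0.36 (rho = 0.34, adjusted permutation p 0.037), but not within clusters, where r was -0.09 in rich and 0.20 in poor libraries (adjusted permutation p 0.728 and 0.428). Col9a1 and Col9a2 did not pass over the 47 libraries (r = 0.27, rho = 0.27, adjusted permutation p 0.0975) and had r = 0.50 in poor libraries (adjusted permutation p 0.0304). The fibrillar pairs Col5a1 and Col5a2 (r = 0.28, rho = 0.22, adjusted permutation p 0.123) and Col11a1 and Col11a2 (r = 0.27, rho = 0.26, adjusted permutation p 0.112) did not pass.

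Col4a1 and Col4a2 correlated at r = 0.68 (rho = 0.57, adjusted permutation p 3.6e-05), with r = 0.66 in choroid-rich and 0.76 in choroid-poor libraries. With the 2 most distant libraries left out each time, these values were 0.62, 0.48 and 0.46. The genes lie head to head on chromosome 8, Col4a1 on the minus strand from 11198423 to 11312826 and Col4a2 on the plus strand from 11312805 to 11449287. Their first exons share 22 bases (chr8:11312805-11312826, plus strand), shown because the pair starts from 1 common stretch, with the GC box letters GGGCGG in capitals.
Col4a1 and Col4a2 shared bases: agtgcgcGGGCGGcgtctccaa
The libraries were unstranded, so a read within the 22 bases cannot be assigned to either gene. The levels of the pair stayed close over the groups, with group medians from 22.9 to 26.8 CPM for Col4a1 and from 30.9 to 33.4 CPM for Col4a2. The 95% intervals of Col4a1 and Col4a2 for both age comparisons and both PF4 comparisons included 0. Lamb3, Col18a1, Col4a3 and Col10a1 also lie over genes on the other strand, which held 17858, 9035, 3766 and 2419 reads, so their own counts are uncertain.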

How the data were processed

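Hippocampal RNA-seq of 47 mouse libraries was read from 1 table of counts per gene. Per the labels, the authors used Trim Galore 0.3.7 for trimming, STAR 2.5.3a and the GRCm38 genome for alignment, and DESeq2, and their methods state that samples of low coverage were left out. The deposited values are raw counts without normalization. Groups followed age and treatment in the labels. The counts were fitted with edgeR 4.0.16 (R 4.3.3; TMM, filterByExpr, estimateDisp, glmQLFit, glmQLFTest) over all 4 groups without covariates, with Benjamini-Hochberg adjustment over 17778 genes. DESeq2 1.42.0 was an alternative. The SE is the log2 fold change over the root of F. Library totals of 2242879 to 21112908 set the precision, and genes with few reads have wide intervals. Marker scores are means of log2 CPM (prior count 2), and correlations used two-sided permutations within groups (Python 3.11.15), those with scores adjusted over all genes, a choice made after seeing the data. Lengths and coordinates came from GENCODE vM21. Genes named are members called by edgeR or DESeq2, the 5 with the smallest unadjusted p in each comparison, the 10 highest per length, members of described pairs, and list genes called or, if none, the 2 with the smallest p, with Col17a1 and the genes of uncertain counts added after their values were seen. The members, lists and tests were chosen with earlier results of these data known. The steps were tested on simulated counts. The labels number separate samples without saying more, so p-values measure the spread between these libraries. A gene that the naming rule gave is not reported here.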

Additional observations from a re-analysis of the deposited data

Results flagged for a closer look

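In Old PF4, the only group of 4 to 10 libraries, the highest or lowest library was compared with its neighbour by Dixon's test for 37 named collagens and laminins, and 2 stood apart, where chance flags about 1 in 20 groups. Col1a1 was 16.5 CPM in Old PF4 replicate 9 and 9.64 in the next library, a gap of 0.611 of the range. Old PF4 replicate 9 also had the highest fibroblast score (4.47), Col1a2 level (20.3 CPM) and Col3a1 level (5.69 CPM) of Old PF4. Col6a1 was 66.8 CPM in Old PF4 replicate 3 and 42.3 in the next, a gap of 0.579 of the range. The flags fell on different libraries. Without Old PF4 replicate 9 the log2 fold change of Col1a1 with age in PF4 mice was -0.61, and without Old PF4 replicate 3 that of Col6a1 was 0.12.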

How the results depend on the processing

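For age in Veh mice, 1 collagen or laminin was called in the reported fit, 2 with DESeq2 and with the filter of 1 CPM in 10 libraries, 3 with the length index as covariate (Col1a1, Col1a2 and Col26a1), 0 with the choroid plexus score as covariate, and 0 in choroid-poor or choroid-rich libraries alone (chosen after seeing the data, and with fewer libraries). Over all genes the calls went from 492 to 637 with DESeq2, 502 with that filter, 901 with the length index, 359 with the choroid plexus score, 453 with the replicate block, 468 of 17192 with the fit of both Veh groups only, and 42 and 43 in choroid-poor and choroid-rich libraries. Without the libraries under 5000000 counts 176 of 18060 genes were called. Leaving out each library in turn gave 0 to 3 called collagens or laminins. Replicate numbers were not used to pair the samples. Deviations of same-numbered libraries from their group means had a median r from -0.08 to 0.11 between groups, with single values from -0.425 to 0.554. Differently numbered libraries were not compared in this way, so pairing was not excluded. With the replicate block 3 collagens or laminins were called (Col1a1, Col25a1 and Col1a2). Fitted to Young Veh and Old Veh only, 1 was called, and it was Col25a1 instead of Col1a1. The other 4 comparisons gave 0 called collagens or laminins in every alternative run, libraries left out included. Their fold changes moved, though. For PF4 in old mice the log2 fold change ran from 0.21 to 0.77 for Col4a6 over the alternative fits. It ran from 0.25 to 0.53 for Col5a3, from -0.33 to -0.15 for Lama3 and from -0.21 to -0.07 for Lamc1. For PF4 in young mice it ran from 0.05 to 0.31 for Col4a1 and from 0.05 to 0.22 for Col25a1. The fit of only the groups compared was not run for the difference of the PF4 effects. Within choroid-rich libraries the log2 fold change of Col26a1 with age in Veh mice turned to 0.038, and within choroid-poor ones that of Col25a1 with age in PF4 mice turned to -0.022. Leaving out 1 library moved the latter between -0.0072 (without Old PF4 replicate 10) and 0.070. When choroid clusters were removed along with group means (chosen after seeing the data), 8 genes instead of 19 passed with the fibroblast score and 3 instead of 17 with the choroid plexus score, while 11 instead of 12 passed with the endothelial score and 10 instead of 14 with the pericyte and smooth muscle score. The shares of all genes passing fell as well, from 7.51% to 1.65%, 7.73% to 0.883%, 4.25% to 1.48% and 3.98% to 1.75%. Leaving out the libraries under 5000000 counts, a prior count of 0.5 or no centring kept these counts within 1.5 times. The cause of these shifts was not tested. Levels per length rest on the longest transcript. Low counts limit genes under about 1 CPM, such as Col7a1.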
